A study of Mus musculus with 4 samples.

Results

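The endothelial receptor and junction genes described here are Flt1, Kdr, Tie1, Tek, Pecam1 and Cldn5. They were chosen by name, as all probe sets whose single gene symbol in the platform's gene table is one of these. All 6 were found, among 8251 genes on the array with a symbol of their own, and 8 of 12488 probe sets (sets of short probes designed together against a transcript) belong to them. Flt1 and Tie1 have 2 each and the other genes 1. The arrays were hybridised with total RNA from the CA1 region of the hippocampus of young male C57BL/6J mice. Each mouse had been placed in the context 2 h before training and had then received 3 foot shocks of 0.5 mA for 1 s each, and the labels name this condition shock alone. By the labels the mice of all 4 samples also stayed in the training chamber for 1 h after the last shock, which for the 1 h sample is the whole interval. Tissue of 4 samples was collected after the last shock, at 1, 2, 4 and 6 h, and each time has 1 array. The labels do not state how many animals a sample holds. No unshocked group was analysed here, so each time was set against the other times. With no replicates no test was possible and the text holds no p-value. Precision is limited by there being 4 arrays.

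Endothelial cells line the blood vessels and, in brain, form the blood-brain barrier. They sense vascular endothelial growth factors (VEGFs) through receptor tyrosine kinases, of which the products of Flt1 and Kdr are the main ones. Kdr carries most of the mitogenic and permeability signal, while Flt1 binds ligand tightly and signals weakly. A second receptor pair, Tie1 and Tek (Tie2), responds to angiopoietins and keeps vessels stable. Pecam1 encodes an adhesion molecule at the contacts between endothelial cells, which platelets and leukocytes also carry. Cldn5 encodes the main claudin of the tight junctions of brain endothelium. Since the arrays read bulk tissue, fewer endothelial cells and less RNA per cell cannot be told apart.

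In the RefSeq annotation of the mouse build GRCm38.p6, Flt1 lies at chr5:147561604-147726438 and Kdr at chr5:75932827-75979072. Tie1 lies at chr4:118471191-118489849, Tek at chr4:94739086-94874976, Pecam1 at chr11:106654213-106715281 and Cldn5 at chr16:18776847-18778262. Promoter sequences of 5 of the 6 genes, all but Pecam1, were found in the RefSeq table of that build. Short stretches are shown for Flt1, Kdr and Cldn5, the genes whose level could be read at every time. Each is the 30 bases, 5′ to 3′ on the gene's strand, around the motif that the fewest promoters hold, with that motif in capitals.
Flt1: gggggacccctTGACGTCActggaaggagg
Kdr: ccggtaatgaccCCGCCCccattcgctagt
Cldn5: tgggggcagagtCCGCCCccgagacttcaa

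The Flt1 stretch lies at chr5:147726074-147726103 on the minus strand, the Kdr stretch at chr5:75978483-75978512 on the minus strand, and the Cldn5 stretch at chr16:18776790-18776819 on the plus strand. Motifs were searched on both strands over the 250 bases before the start site that the promoter table gives for each gene. For Flt1 and Kdr that site lies inside the annotated gene, so the stretches shown fall within the gene's bounds given above and not before its 5′ end. The capitals in Flt1 mark TGACGTCA, the full cyclic AMP response element, which 1.55% of 32851 promoters held and which no other member's window held. It begins 81 bases before the start site. Flt1 also held TATAAA, the letters of a TATA box, 31 bases before the start, where 12.4% of promoters held these letters anywhere in the window. AGGAAG, a core bound by ETS factors of the kind that endothelial genes use, began 129 and 53 bases before the Flt1 start. It was also in the Tie1 window and in 29.5% of all promoters. CGGAAG, another ETS core, was found in Tie1 alone among the members and in 13.6% of all promoters. The capitals in Kdr and Cldn5 mark CCGCCC, which is GGGCGG, a site of Sp1, read on the other strand. Flt1, Kdr and Cldn5 all held it, as did 32.7% of promoters. AGATAA, a site of GATA factors, was in no member's window and in 9.99% of promoters. These matches describe letters and were not tested for binding.

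Values are scaled intensities on a linear scale. Those below 100.8, the 40th percentile over all arrays, were treated as below a floor where dim probe sets have no reliable order. Of the 8 member probe sets, 3 lay above it on all 4 arrays, 1 on 1 array and 4 on none. Of all 12422 probe sets other than controls, 30.9% lay below it on all 4 arrays. Flt1, Kdr and Cldn5 could thus be followed over time, Pecam1 could be read at 1 h only, and Tie1 and Tek could not be read.

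Flt1 was highest at 1 h and lowest at 6 h. Its brighter probe set, 98452_at, read 342, 259, 276 and 214 at 1, 2, 4 and 6 h. The value at 6 h was 1.60-fold lower than at 1 h, a log2 difference of −0.68. Over the 3309 probe sets of like brightness, within 2-fold of its mean, the robust SD of the log2 difference between these 2 arrays was 0.37, and 10.6% differed at least as far. This pair was its highest and lowest array. Of all probe sets above the floor on all 4 arrays, 19.8% had at least as wide a range. In the order 1, 4, 2 and 6 h the steps were 1.24-fold, 1.07-fold and 1.21-fold. None of these steps between neighbours in the order exceeded the spread of its pair of arrays. The second Flt1 probe set, 98453_at, read 42.4, 80.3, 56.8 and 87.6 and was below the floor throughout, so the course of Flt1 rests on 1 probe set. The platform table links the Flt1 probe sets to separate sequence records, and which form of the receptor each reads, membrane or soluble, was not analysed here.

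Kdr had another course. Its probe set, 104265_at, read 130, 156, 112 and 174 at the 4 times, so Kdr was highest where Flt1 was lowest. From 4 to 6 h it stood 1.55-fold higher, a log2 difference of 0.63 against a spread of 0.39, and 12.4% of 2019 probe sets of like brightness differed at least as far. These were its lowest and highest arrays. Of all probe sets above the floor on all 4 arrays, 23.4% had at least as wide a range. In the order 6, 2, 1 and 4 h, the steps of 1.11-fold, 1.20-fold and 1.16-fold lay within the spread. Kdr is dim, and at 4 h it stood just above the floor. Set against Kdr within each array, Flt1 had a ratio of 0.629, 0.933 and 0.467 at 2, 4 and 6 h, taking that at 1 h as 1. This ratio rests on 1 probe set per gene and 1 array per time, and its spread was not determined.

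The Tie receptors were not read above the floor on any array. Tie1 read 64.8, 41.2, 78.8 and 82.2 from 1 to 6 h on the probe set 161184_f_at. That name carries the suffix f, which marks probes shared by related sequences. The other Tie1 probe set was dimmer still, at 11, 12, 15 and 14. Tek read 76.5, 83.9 and 78.6 at the first 3 times and 37.7 at 6 h. No order of times is drawn from these values.

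Pecam1, the adhesion molecule, was above the floor at 1 h alone. Its probe set, 97830_at, read 217 at 1 h and 75.6, 80.6 and 40.5 at 2, 4 and 6 h. Pecam1 was thus at least 2.15-fold higher at 1 h than at each other time, taking the floor as the value there. Across the array, 0.217% of probe sets, 27 of 12422, were likewise at least 1.5-fold above the floor at 1 h and below it at the other times, and for 2, 4 and 6 h the corresponding counts were 69, 25 and 22. Platelets and leukocytes, which also carry Pecam1, were looked at through their own genes. Of 16 platelet and leukocyte genes on the array, 12 were below the floor on all 4 arrays, among them Pf4, Itgb3 and Ptprc. The summed intensity of all 16 was 837 at 1 h and 1005, 869 and 814 later. Of the 2 measured by their mean, Cd79a of B cells read 170, 73.4, 159 and 129, and the platelet gene Gp1bb read 246, 208, 258 and 203. Neither was above the floor at 1 h alone. The part of these cells in the Pecam1 value was not tested.

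Cldn5, the tight junction claudin, varied least among the members that could be followed. Its probe set, 104516_at, read 393, 376 and 401 at 1, 2 and 4 h and 320 at 6 h. The first 3 arrays lay within 1.07-fold of each other, and 6 h stood 1.26-fold below 4 h. That log2 difference of −0.33 was close to the spread of 0.32 between these arrays, and 32.4% of 3346 probe sets of like brightness differed at least as far. These too were the highest and lowest arrays, and 62.7% of all probe sets had at least as wide a range.

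**Figure D1:**
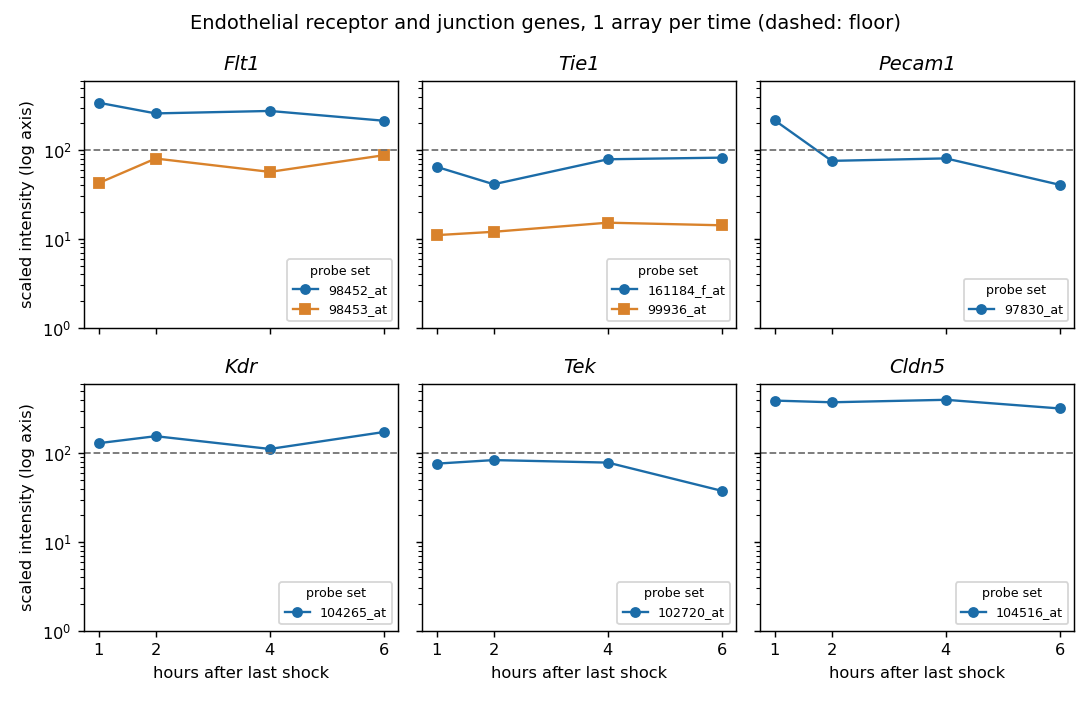
Scaled intensity (log axis) of each member probe set against hours after the last shock, with 1 array per point and the floor of 100.8 as a dashed line. The brighter Flt1 probe set and Cldn5 stay above the floor and are lowest at 6 h, Kdr is highest at 6 h, Pecam1 is above the floor at 1 h only, and Tie1 and Tek lie below it throughout.

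The ranges of the followed members were set beside those of all other probe sets. The highest over the lowest array was 1.60-fold for Flt1, 1.55-fold for Kdr and 1.26-fold for Cldn5, against a median of 1.32-fold over 6442 probe sets above the floor on all 4 arrays. A range of at least 1.5-fold was reached by 2 of these 3 members and by 27.9% of all. At least as wide a range as that of Flt1 was found for 19.8% of probe sets, of Kdr for 23.4% and of Cldn5 for 62.7%. None of the 3 had a time at which it lay 1.5-fold or more to one side of all the other times, where 6.30% of all probe sets did. From 1 to 6 h, Flt1 was lower by at least 1.5-fold, as 5.82% of 6859 probe sets were. None of the 3 was higher by that much, against 3.76% of all. No median or count over the members is given as a sign of a common course, since Pecam1 entered only through its value at 1 h.

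**Figure D2:**
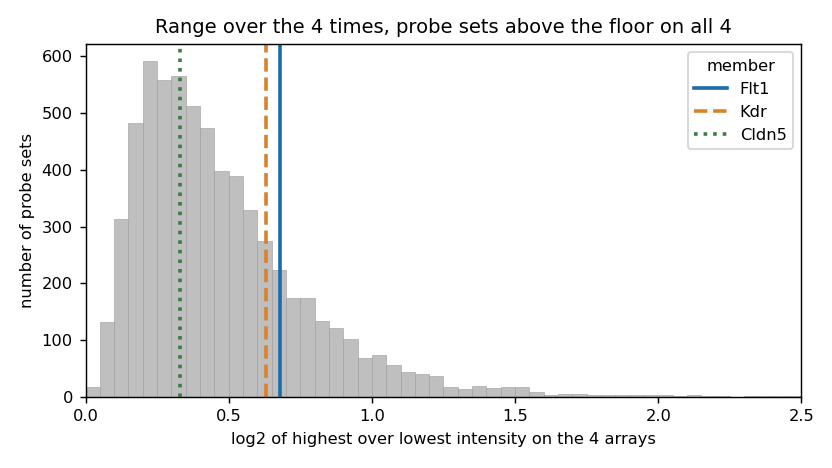
Number of probe sets by the log2 of their highest over lowest intensity on the 4 arrays, for those above the floor on all 4, with vertical lines at Flt1 (0.68), Kdr (0.63) and Cldn5 (0.33). Flt1 and Kdr fall to the right of the median range and Cldn5 to its left.

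The courses of Flt1 and Cldn5 were closer to each other than either was to that of Kdr. The root mean square difference of their centred log2 values over the 4 arrays was 0.154, and 6.35% of all probe sets were as close to Flt1. Between Flt1 and Kdr it was 0.446, and between Kdr and Cldn5 0.362. The probe sets of other genes closest to Flt1 were those of Sspn, which encodes a transmembrane protein of the dystrophin complex, at 0.022, Zfp692, a zinc finger gene, at 0.037 and Prss12, a serine protease of neurons, at 0.038. Sspn read 198, 150, 157 and 127. Closest to Kdr were Myrf, a transcription factor of oligodendrocytes, at 0.017, Spats2 at 0.028 and Rdh13, a retinol dehydrogenase, at 0.038. Myrf read 420, 498, 363 and 574. Within 0.1 lay 114 of 6441 probe sets for Flt1 and 77 for Kdr. With 4 arrays such likeness is a description.

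Other markers of endothelium did not follow a single course. Of 13 defining markers, members included, 6 were above the floor on all 4 arrays, 4 on some and 3 on none. Of all 12422 probe sets other than controls, 6442 were above it on all 4 arrays and 30.9% were below it on all 4. Eng, a co-receptor for transforming growth factor beta in endothelium, read 810, 657, 727 and 654, and was lower at 6 h than at 1 h as Flt1 and Cldn5 were. Slc2a1, the glucose transporter of the blood-brain barrier, read 221, 298, 310 and 338, higher at each later time and 1.53-fold over the whole span. Cd34, a surface sialomucin, read 265, 239, 300 and 337, and its dimmer probe set was also highest at 6 h. Of the 6 read on every array, 3 (Kdr, Slc2a1 and Cd34) were thus above their 1 h level at 6 h and 3 below it. Vwf, the von Willebrand factor, read 197, 150 and 204 and then 76.5, below the floor at 6 h. Abcb1a, a drug efflux pump of the barrier, stayed near the floor, between 99.0 and 132. Cdh5, the cadherin of endothelial adherens junctions, was above the floor only at 4 h, at 104, and Icam2 was below it throughout.

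Some ligands of the member receptors were too dim to read. Of 8 genes of the VEGF and angiopoietin ligand families on the array, counting the related Angptl4, 4 were below the floor on all arrays. These were Vegfa, Vegfc, Angpt1 and Angpt2. The ligands of Tie1 and Tek were thus as unreadable as the receptors themselves. Vegfb, which binds Flt1, was bright and read 1562, 1440, 1304 and 1425, a range of 1.20-fold. Pgf, the placental growth factor and also a ligand of Flt1, read 186, 166, 171 and 192. Vegfd read 168, 184, 114 and 156, lowest at 4 h. Angptl4 had probe sets that disagreed, at 238, 319, 255 and 203 on the brightest and 49.2, 109, 213 and 191 on another. The median of the 4 measured ligand genes at 6 h, relative to the other times, was 0.02 (log2), and it changed sign with the floor.

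Other receptors of the vessel wall were on balance lower at 6 h. Of 10 measured, 8 were below the mean of the other times at 6 h and 2 above, with a median log2 difference of −0.24. Over all 5671 genes measured, 51.1% were below at 6 h and the median was −0.01. Ptprb, the phosphatase that dephosphorylates Tek, read 146, 159, 234 and 129, highest at 4 h. Efnb2, the ephrin ligand of arteries, read 722, 412, 717 and 511, lowest at 2 h. Ednrb, an endothelin receptor that astrocytes also express, read 143, 135 and 115 and was below the floor at 6 h. Notch4 was also below it at 6 h, at 86.5, so both values there were set to the floor. Acvrl1, a receptor of the transforming growth factor beta family, read 372 at 6 h against 516, 597 and 503 on its brightest probe set, while its other probe sets disagreed, with 249, 331, 247 and 270 on one and 131, 160, 125 and 147 on the other. Nrp1, the VEGF co-receptor that pairs with Kdr, read 1510 at 1 h and 1910, 1935 and 1926 later, and its second probe set read 402, 369, 404 and 458. None of the 8 receptors above the floor on all 4 arrays stood 1.5-fold apart at 1 time, where 6.30% of all probe sets did.

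Among genes of cell junctions, 14 of 22 on the array were measured. The list is not limited to endothelium, and Gja1 is also among the astrocyte genes. Their median was 0.13 above the other times at 1 h, with 10 above and 4 below, and −0.10 at 6 h, with 5 above and 9 below. Over all genes measured, 52.4% were above at 1 h and 51.1% below at 6 h. The tight junction scaffold Tjp1 read 1093, 1086, 1137 and 952, with its lowest value at 6 h as for Cldn5. Ctnnb1, the catenin that links cadherins to actin, read 8264, 7752, 7563 and 7369. Occludin, encoded by Ocln, was below the floor throughout. Tjp1, Ctnnb1 and Ocln were picked for their role after their values were seen. The widest ranges were those of Jam3, a junctional adhesion molecule, at 316, 136, 245 and 274, and Nectin2, an adherens junction protein. Nectin2 read 245, 498, 277 and 427 on its brightest probe set. Its other probe set disagreed, with 151, 135, 99.9 and 106, highest at 1 h. Jam3 was 1.80-fold lower at 2 h than on the nearest other array, and Mpdz, a tight junction scaffold, was 1.65-fold higher at 2 h, at 547. These were the 2 of 14 that stood apart at 1 time, both at 2 h, where 6.30% of all probe sets stood apart at any time. That array had the highest 3' to 5' ratio of the actin control probe sets, 2.70 against 1.74 to 1.84 on the rest, and its part in these values was not tested. Gja5, a connexin of arterial endothelium, read 220, 166, 200 and 138.

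The remaining endothelial lists differed from each other. Of 24 other endothelial genes measured, at 6 h 11 were above and 13 below the mean of the rest. Their median was −0.01, or 0.06 after scaling to a common median. Among all genes measured, 48.9% were above and 51.1% below at 6 h. This list shares Rgs5 with the pericyte and smooth muscle genes and Sparcl1 with the astrocyte genes. Cav1, the caveolin of endothelial caveolae, read 204, 127, 162 and 176. Among 13 transcription factors of endothelium, at 1 h 3 were above and 10 below, with a median of −0.14, and at 2 h 9 were above and 4 below, with a median of 0.22. Over all genes 52.4% were above at each of these times. Only 9 of the 13 were above the floor on all 4 arrays. Etv2 read 133, 254, 27.6 and 12.2 and counted as measured only through its values at 1 and 2 h. Both medians of the transcription factors kept their sign in the alternatives run, between −0.23 and −0.08 at 1 h and between 0.12 and 0.22 at 2 h. Ets2, an ETS factor, read 659, 915, 480 and 491, and Lef1, an effector of Wnt signalling, read 574, 507, 366 and 336. Of 34 signalling genes downstream of VEGF and Tie receptors, 18 were above and 16 below at 6 h, with a median of 0.03.

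Pericytes and smooth muscle cells wrap the endothelium, and their markers were lower at 6 h. Of 9 measured, at 6 h 1 was above and 8 were below the mean of the rest (median −0.35), and at 1 h 8 were above and 1 below (median 0.28). All 9 were lower at 6 h than at 1 h, where 51.8% of all genes measured were. Only 5 of the 9 were above the floor on all 4 arrays. Anpep, Pdgfrb and Tpm2 were below it at 6 h, so their values there were set to the floor. Tpm2 read 186, 166, 48.3 and 55.1 and counted as measured only through its early values. Myl9, a myosin light chain, read 226, 206, 237 and 141, Notch3, a receptor of mural cells, read 253, 261, 199 and 175, and Rgs5, a pericyte gene, read 189, 174, 183 and 153. Vtn, which encodes vitronectin, read 252, 135, 219 and 154. Acta2, the smooth muscle actin, was the 1 gene above the other times at 6 h, with 210, 117, 137 and 167, and its lowest value was at 2 h. The part of these cells in the 6 h values of Flt1 and Cldn5 was not tested. The median at 6 h was −0.22 without the 1 h array, and that at 1 h was 0.15 without the 6 h array.

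**Figure D3:**
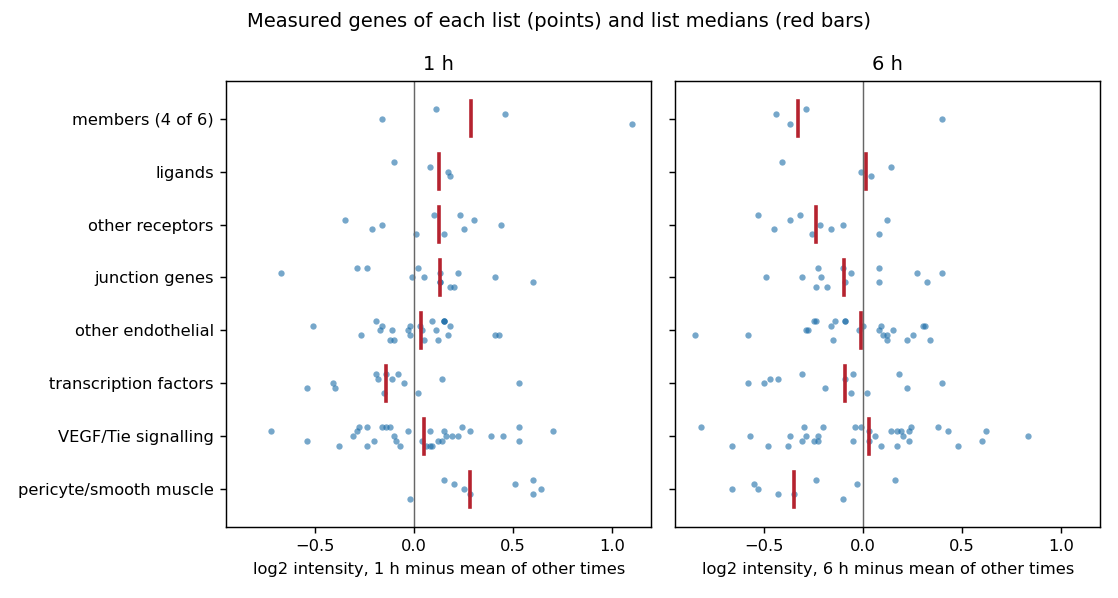
Log2 intensity at 1 h (left) and 6 h (right) minus the mean of the other times, with values below the floor set to it, for the measured genes of each list (points) and the median of the list (red bars). The pericyte and smooth muscle genes lie mostly above 0 at 1 h and below 0 at 6 h, and of the members Kdr lies at 0.40 at 6 h, Flt1 at −0.44 and Cldn5 at −0.29. The point of Pecam1 at 6 h, −0.37, is the floor set against its 1 h value and not a reading at 6 h.

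Genes of another tissue were high on the 6 h array. Ttr, the transthyretin of choroid plexus, read 111, 89.9 and 198 at the first 3 times and 4482 at 6 h. Of 7 measured choroid plexus and ependymal genes, 6 were above the other times at 6 h, where 48.9% of all genes measured were. Among the 6, Folr1 read 98.4, 58.7, 37.6 and 255 and counted as measured only through its 6 h value. The summed intensity of the 10 such genes on the array was 2791, 2331, 2909 and 9132. Choroid plexus holds vessels of its own, and the part of this tissue in the 6 h values of Kdr, Flt1 and Cldn5 was not tested. The lists of other cell types had medians closer to 0, which cover genes that went both ways. At 6 h relative to the other times, the medians were −0.06 for 13 astrocyte genes, −0.03 for 9 microglial genes, −0.04 for 6 meningeal genes and 0.02 for 7 pyramidal neuron genes. They were 0.10 for 4 red blood cell genes and −0.17 for the 2 platelet and leukocyte genes. Among the meningeal genes, Col1a1, a collagen, read 305, 303, 359 and 202 and stood apart at 6 h, Dcn, which encodes decorin, was 1.72-fold higher at 1 h than on the nearest other array, and Pdgfra, also a gene of oligodendrocyte precursors, was 0.69 (log2) above the other times at 6 h. The neuronal genes of widest range were Wfs1, at 1709, 1637, 2608 and 2205, Neurod6, at 768, 648, 1263 and 1089, Dlg4 and Pou3f1. Dlg4 read 669, 507, 851 and 610, and Pou3f1 read 484, 455, 355 and 359, lower at the later times.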

How the data were processed

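Expression was measured on 1 Affymetrix array per time in 4 samples, grouped by the time in the title. The deposited values are linear intensities, already brought by the authors to a trimmed mean of 500.3 on each array, as the values show. The software is not given in the sources used here. Each array was rescaled on its trimmed mean, 2% off each end, over 12422 probe sets other than 66 controls, by factors from 0.999 to 1.001. Genes were named from the platform's gene table where it gives 1 symbol (10833 probe sets, 10817 of them found in RefSeq). The brightest probe set stood for a gene, and a gene was measured when its mean exceeded the floor. The members and the 14 gene lists were chosen with earlier results of these data known. From each list up to 4 genes of widest range were to be named, besides the members, their 3 nearest courses and the endothelial markers, and the text gives most of these. Genes outside that rule, among them Nrp1, Notch3, Rgs5, Pf4, Itgb3 and Ptprc, were added with their values in view. Log2 differences were taken after setting low values to the floor. The steps were tested on simulated data. The tools were pandas 2.3.3, NumPy 2.4.6 and matplotlib 3.10.9 under Python 3.11.15.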

Additional observations from a re-analysis of the deposited data

How the results depend on the processing

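The floor changed which members stood apart. At the 20th percentile, 30.5 units, 3 member probe sets stood 1.5-fold apart at 1 time against 0 at the main floor: Pecam1 (higher at 1 h, lower at 6 h), Tek (lower at 6 h) and Tie1 (lower at 2 h). There 16.9% of all probe sets did so. At the 60th percentile, 267 units, only Cldn5 stayed above the floor on all arrays, the range of Flt1 fell to 0.35 (log2) and Kdr was below the floor. Scaling left the direction of Flt1, Kdr, Cldn5 and Pecam1 as it was.

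The median over Flt1, Kdr, Pecam1 and Cldn5 relative to the other times was 0.29, −0.02, −0.16 and −0.33 at 1, 2, 4 and 6 h. Since Pecam1 enters it only through its value at 1 h, it is given to show the effect of processing and not a common course. At 1 h it was 0.18 with each gene's probe sets averaged, and 0.11 without Pecam1, a choice made after seeing the data. At 2 h it was −0.16 without the 6 h array and 0.08 without the 1 h array. At 4 h it was 0.10 and 0.04 with the floor at the 20th and 60th percentiles, 0.05 without Pecam1 and 0.11 without the 1 h array. The sign thus changed at both 2 and 4 h. At 6 h it was −0.21 with the floor at the 60th percentile, −0.17 as a mean over members and −0.14 without the 1 h array. Without Pecam1 the median at 6 h was −0.29.

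Of 440 recomputed list medians, 376 moved by less than 0.1, 64 moved further and 60 changed sign. The medians of receptors, junction genes and mural genes at 1 h and 6 h kept theirs where run; mural genes gave no value with the floor at the 60th percentile. A common median as the scale put the median of all genes at 6 h 0.10 above 2 h. Dim signal limits Tie1, Tek and Pecam1.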
